A study of Mus musculus with 6 samples.

Results

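The genes described here encode enzymes that carry HMG-CoA to lanosterol, the first sterol of cholesterol synthesis. They were chosen by name, as Hmgcs1, Mvk, Pmvk, Mvd, Idi1, Fdps, Fdft1, Sqle and Lss. All 9 had at least 1 probe among the 20659 named genes of the array and all 9 were among the 14803 genes tested. The list holds no gene for the reduction of HMG-CoA to mevalonate. Liver RNA came from male ICR mice, an outbred stock, weighing 18 to 22 g. The DECB group received deproteinized extract of calf blood into the stomach, 0.08 mL per 20 g of body weight once a day for 35 days, and the control group received the same volume of normal saline. Each group had 12 mice, of which 3 DECB samples (DECB 4, 5 and 6) and 3 control samples (controls 1, 2 and 3) were on arrays. The sample descriptions give 30 days for DECB and 1 day for the controls, which conflicts with 35 days in both groups. The study also timed how long mice tolerated a closed container, and no source says on which side of that test the livers were collected. The labels do not say that each array had a mouse of its own. The p-values therefore measure only how these samples vary, and that variation may be technical.

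The pathway runs in the cytosol and on the endoplasmic reticulum. HMG-CoA is made from acetyl-CoA units, and mevalonate derived from it is phosphorylated and decarboxylated to isopentenyl diphosphate, the building block of all isoprenoids. Those units are joined to farnesyl diphosphate, which feeds both sterols and other products such as dolichol, ubiquinone and lipid anchors of proteins. Squalene synthase commits it to sterols, and squalene is then oxidised with molecular oxygen and closed to lanosterol. In liver these genes are classic targets of the transcription factor SREBP2, which is released to the nucleus when membrane sterol is low.

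The arrays differed in brightness. Slide 1, the arrays sharing a scan time that held DECB 6 and control 1, had 75th percentiles of the processed signal of 84.8 and 78.8. The other 4 arrays had 422 to 551: DECB 4 and controls 2 and 3 on slide 2, and DECB 5 alone on slide 3. Controls 2 and 3 were the most alike pair, with Pearson's r of 0.992 across genes, which are not independent replicates. The next was DECB 6 with control 1, at 0.968. Albumin and 5 other hepatocyte markers summed to 1734 to 2127 times the array's 75th percentile in DECB samples and 1918 to 2215 times in controls.

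All 9 pathway transcripts had a higher mean in DECB livers, and the differences were largest for Mvd and Sqle. Mvd was 11.6-fold and Sqle 10.6-fold higher, and these 2 of the 9 genes passed the test (limma, Benjamini-Hochberg adjusted p under 0.05). With normexp background correction (offset 50) followed by quantile normalization, called normexp below, they were 4.95-fold and 9.11-fold higher, and both passed. Among all genes 0.209% passed in that direction and 0.257% in the other. Lss was 4.68-fold higher and Fdft1 2.86-fold higher without passing (adjusted p = 0.0679 and 0.0844). All 9 differences were above 0, a sign that 47.5% of all genes had, and 5 of 9 had an unadjusted p under 0.05, against 4.22% of all genes in that direction. For Mvk, Mvd, Fdft1, Sqle and Lss, 5 genes, every DECB array lay above every control array, which held for 7.24% of all genes. The median difference of the 9 genes was 1.48 (DECB minus control, log2), beside -0.03 over all genes. In bulk tissue, more cells of a type and more RNA per cell cannot be told apart.

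The calls of Mvd and Sqle were lost when control 1, control 2, control 3, DECB 4 or DECB 5 was left out, and held without DECB 6. They were also lost when controls 2 and 3 were averaged to 1 sample and with no filter on dim probes. The call of Mvd was lost with quantile normalization of the processed signal too. With slide as a block, 4 of 9 genes were called higher (Mvd, Fdft1, Sqle and Lss), against 2.74% of all genes; DECB 5 adds nothing to that contrast, which leaves 2 residual degrees of freedom. With slide as a random block, 7 of 9 were called higher, against 6.28% of all genes.

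**Figure D1:**
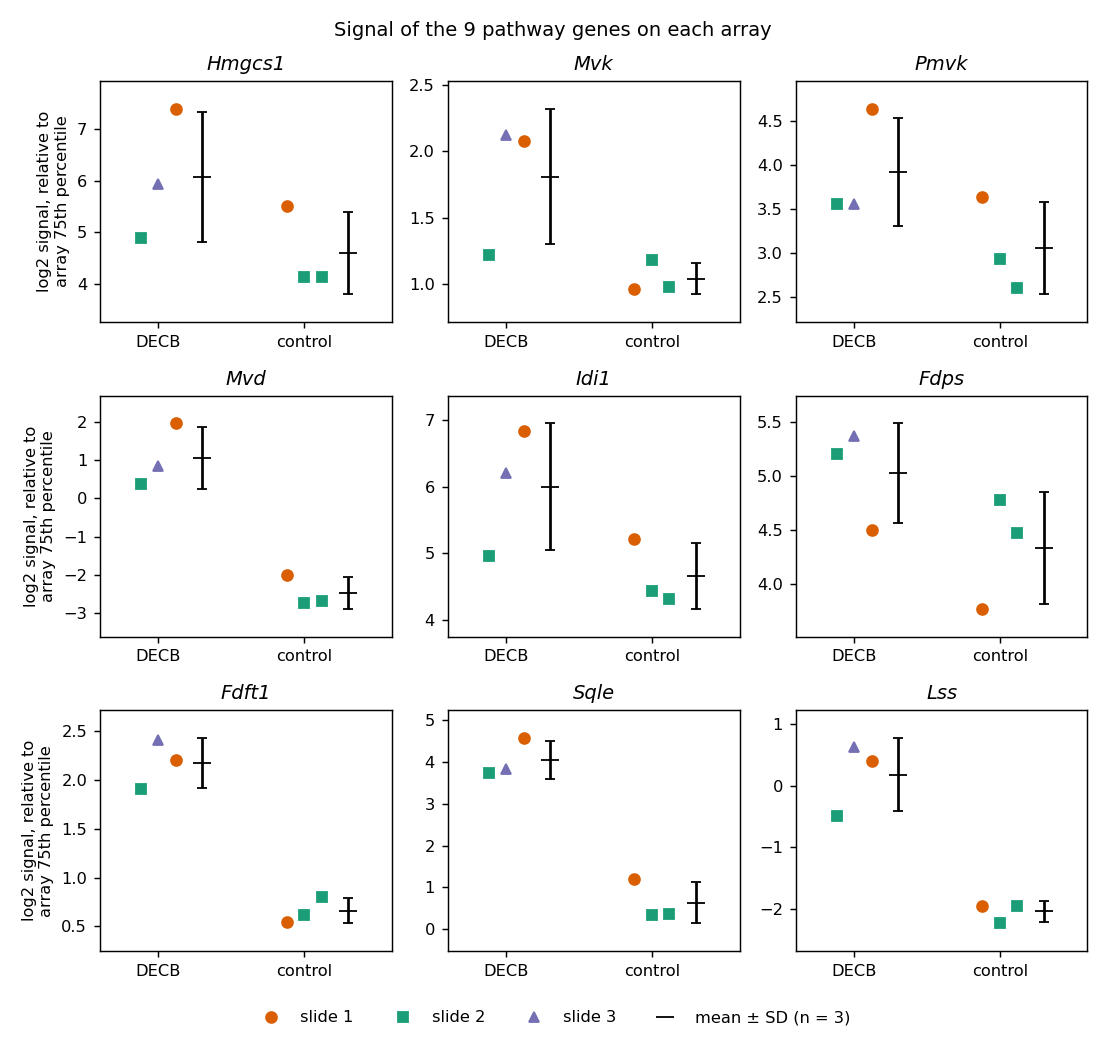
Log2 signal (vertical axis, 0 at the 75th percentile of each array) for each of the 9 genes on the 3 DECB and 3 control arrays. Colour and symbol give the slide and bars give mean ± SD (n = 3). Mvd, Sqle, Lss and Fdft1 show the groups well apart, while Hmgcs1, Pmvk, Idi1 and Fdps overlap.

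Promoter sequences, 250 bases before to 50 after an annotated start, were taken from RefSeq (GRCm38.p6), where 6 of the 9 genes matched, with 7 promoters, since Pmvk has 2. Those of Mvd and Lss are shown because they are, of the genes with an entry, the 2 with the smallest p. That of Hmgcs1 was added after its motif was seen. Capitals mark TCACNCCAC (a sterol regulatory element form), CCAAT (bound by NF-Y) and GGGCGG (bound by Sp1) on either strand, so that a match on the other strand appears as its reverse complement. An E-box, the letters CACGTG, was also searched.
Mvd, chr8:122443373-122443672, minus strand: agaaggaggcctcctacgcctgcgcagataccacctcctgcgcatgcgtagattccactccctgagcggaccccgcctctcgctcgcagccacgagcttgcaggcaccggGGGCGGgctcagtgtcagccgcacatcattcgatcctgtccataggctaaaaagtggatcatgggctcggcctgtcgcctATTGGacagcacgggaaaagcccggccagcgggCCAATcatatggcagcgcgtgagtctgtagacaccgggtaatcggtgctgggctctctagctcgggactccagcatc
Lss, chr10:76531355-76531654, plus strand: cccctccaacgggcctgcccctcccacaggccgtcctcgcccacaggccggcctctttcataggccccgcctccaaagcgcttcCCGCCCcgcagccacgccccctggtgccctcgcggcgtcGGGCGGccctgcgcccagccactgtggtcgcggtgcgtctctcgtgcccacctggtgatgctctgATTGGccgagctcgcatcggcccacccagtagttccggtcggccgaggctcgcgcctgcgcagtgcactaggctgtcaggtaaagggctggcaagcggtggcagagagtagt
Hmgcs1, chr13:119690101-119690400, plus strand: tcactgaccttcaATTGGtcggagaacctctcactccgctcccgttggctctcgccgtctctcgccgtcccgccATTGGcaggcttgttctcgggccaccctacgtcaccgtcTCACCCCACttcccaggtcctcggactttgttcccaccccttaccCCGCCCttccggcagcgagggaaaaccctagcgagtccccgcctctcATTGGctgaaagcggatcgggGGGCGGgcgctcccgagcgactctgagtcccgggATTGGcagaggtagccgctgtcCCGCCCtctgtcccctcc

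CCAAT was found in 6 of these 7 promoters, 1 of each gene and not the second of Pmvk, and in 37.4% of 32851 RefSeq promoters of the same length. GGGCGG was in 5 of the 7 (in neither of Pmvk) and in 35.7% of all promoters. TCACNCCAC was in 1 of the 7, that of Hmgcs1, and in 1.24% of all promoters; its match there starts at position -137 from the annotated start. The E-box was in 0 of the 7 and in 7.15% of all. These matches describe letters in a fixed window, and binding was not measured. No 2 of the marked matches overlap.

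At the entry of the pathway, Hmgcs1 encodes the cytosolic synthase that makes HMG-CoA (GRCm38.p6, the build of every position given here, chromosome 13, 119690351 to 119708260). Its log2 signal, in which 0 is the array's 75th percentile, was 4.89, 5.94 and 7.39 on DECB 4, 5 and 6, against 5.51, 4.14 and 4.13 on controls 1, 2 and 3. The groups overlapped, since DECB 4 lay below control 1, the control on the dim slide. The means were 6.07 ± 1.26 in DECB and 4.59 ± 0.79 in control samples (SD, n = 3 each), a difference of 1.48 with a 95% interval from -0.15 to 3.10 (adjusted p = 0.555). Between arrays of a slide the difference was 1.88 on slide 1 and 0.75 on slide 2, and without DECB 6 it was 0.82.

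Mevalonate is phosphorylated by the kinases Mvk (chromosome 5, 114444264 to 114460591) and Pmvk (chromosome 3, 89454541 to 89469014). Mvk had 1.22, 2.12 and 2.08 on DECB 4, 5 and 6, against 0.96, 1.18 and 0.98 on controls 1, 2 and 3. The groups did not overlap but came within 0.04 of each other, and DECB 4 lay near the controls of its slide, with a difference of 0.14 within slide 2 and 1.12 within slide 1. Over all arrays Mvk differed by 0.77 (SE 0.34, adjusted p = 0.52). Its second probe read lower and differed by 1.17, with overlapping groups. Pmvk had 3.56, 3.56 and 4.64 in DECB samples and 3.64, 2.93 and 2.60 in controls. It differed by 0.87 (SE 0.43, adjusted p = 0.598), with 1.00 within slide 1 and 0.80 within slide 2. A second Pmvk probe differed by 0.73, and on it the groups did not overlap but came within 0.014 of each other. Neither kinase passed the test, and the 95% interval of Mvk ran from -0.02 to 1.56 and that of Pmvk from -0.15 to 1.88. Without DECB 6 Pmvk differed by 0.51.

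Mvd encodes the decarboxylase that turns mevalonate diphosphate into isopentenyl diphosphate (chromosome 8, 122433596 to 122443422). Its log2 signal was 0.38, 0.84 and 1.95 on DECB 4, 5 and 6, against -2.0, -2.74 and -2.68 on controls 1, 2 and 3. The lowest DECB array lay 2.38 above the highest control array. Mvd averaged 1.06 ± 0.81 in DECB and -2.48 ± 0.41 in control samples (SD, n = 3 each). It rose by 3.53 (SE 0.46, 95% interval 2.44 to 4.63, adjusted p = 0.039), rank 11 from the top of all 14803 differences. The difference was 3.95 within slide 1 and 3.09 within slide 2. Its probe was well above background on 3 of 3 DECB arrays and on 2 of 3 control arrays. On control 1, where it was not, the scanner software's error of the spot was 25.5% of its signal. With normexp and its quantile normalization Mvd differed by 2.31.

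Idi1 encodes the isomerase that makes dimethylallyl diphosphate, the partner unit for chain growth (chromosome 13, 8885606 to 8892396). It had 4.96, 6.20 and 6.83 on DECB 4, 5 and 6, against 5.22, 4.43 and 4.32 on controls 1, 2 and 3. As for Hmgcs1, DECB 4 lay below control 1 and DECB 6 was highest. The difference was 1.34 (SE 0.53, 95% interval 0.10 to 2.58, adjusted p = 0.457), with 1.61 within slide 1 and 0.58 within slide 2. Fdps encodes farnesyl diphosphate synthase (chromosome 3, 89093588 to 89101967). It read 5.21, 5.37 and 4.5 in DECB samples and 3.77, 4.78 and 4.47 in controls. Unlike the other genes, Fdps was lowest on the slide 1 array in each group. Its difference of 0.69 was the smallest of the 9 (SE 0.39, 95% interval -0.23 to 1.61, adjusted p = 0.672), and 0.40 without control 1.

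Fdft1 encodes squalene synthase, which joins farnesyl units head to head (chromosome 14, 63145150 to 63181687). Its log2 signal was 1.91, 2.41 and 2.20 on DECB 4, 5 and 6, against 0.55, 0.62 and 0.80 on controls 1, 2 and 3. The groups lay 1.1 apart at their nearest arrays, and the spread within each was small: 2.17 ± 0.25 in DECB and 0.66 ± 0.13 in control samples (SD, n = 3 each). The difference was 1.52 (SE 0.28, 95% interval 0.86 to 2.17, adjusted p = 0.0844). It passed with normexp, with the filter that keeps only probes well above background on all arrays, and with slide as a block (adjusted p = 0.0388, 0.0491 and 0.032). A second Fdft1 probe was well above background on 0 of 6 arrays and was not tested.

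Sqle encodes squalene epoxidase, the step that uses oxygen (chromosome 15, 59315092 to 59331193). Its processed signal was 5662, 7458 and 2007 on DECB 4, 5 and 6, against 181, 529 and 708 on controls 1, 2 and 3, before any scaling for the dim slide. After scaling, the log2 signal was 3.74, 3.82 and 4.57 in DECB samples and 1.20, 0.33 and 0.36 in controls. The lowest DECB array lay 2.54 above the highest control array, the widest gap of the 9 genes. Sqle averaged 4.04 ± 0.46 in DECB and 0.63 ± 0.49 in control samples (SD, n = 3 each). It rose by 3.41 (SE 0.38, 95% interval 2.51 to 4.31, adjusted p = 0.0318), rank 14 of all differences. Within slide 1 the difference was 3.37 and within slide 2 it was 3.39. Across the 16 alternative settings it stayed between 3.15 and 3.70.

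Lss encodes lanosterol synthase, which folds oxidosqualene into the sterol ring system (chromosome 10, 76531565 to 76557139). It had -0.49, 0.63 and 0.41 on DECB 4, 5 and 6, against -1.95, -2.24 and -1.95 on controls 1, 2 and 3. The groups lay 1.45 apart at their nearest arrays. The difference was 2.23 (SE 0.36, 95% interval 1.36 to 3.09, adjusted p = 0.0679). Blocking on slide gave an adjusted p of 0.0291. The difference was 2.36 within slide 1 and 1.6 within slide 2. Its probe was not well above background on control 1, and with normexp it differed by 1.51.

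**Figure D2:**
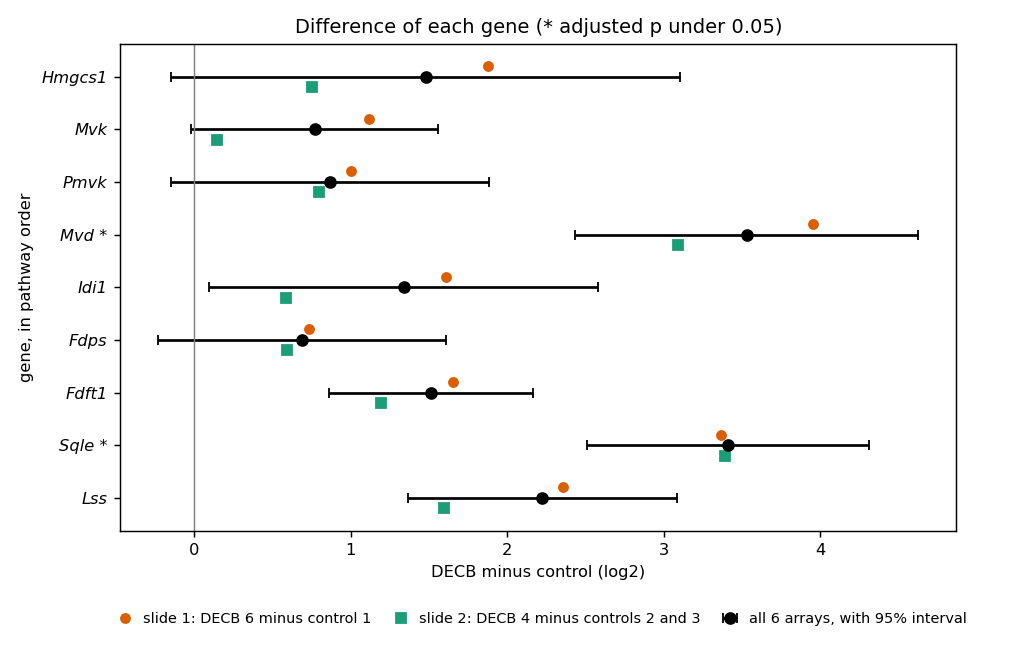
DECB minus control (log2, horizontal axis) for each gene in pathway order, from all 6 arrays with the 95% interval, and within slides 1 and 2. All points lie above 0, Mvd and Sqle near 3.5 and the intervals of Hmgcs1, Mvk, Pmvk and Fdps reach below 0.

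Set by size, the differences ran from 3.53 for Mvd through Sqle, Lss, Fdft1, Hmgcs1, Idi1, Pmvk and Mvk to 0.69 for Fdps. The order moves with the processing. With normexp Sqle (3.19) lay above Mvd (2.31) and Hmgcs1 (1.55) above Lss (1.51). With quantile normalization of the processed signal Sqle (3.50) lay above Mvd (3.46). The 95% intervals of neighbours in this order overlap, and that of Lss overlaps those of all 8 other genes. The size did not follow the order of the steps: Mvd stands between Pmvk and Idi1, and Sqle between Fdft1 and Lss. Ratios of neighbouring genes on the same array, in which scaling cancels, describe the steps in the pattern. Their level has no meaning, as it compares 2 probes. Their shift between groups is a gene's difference less that of its neighbour, and it moves with the processing.

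The log2 ratio of Mvd to Pmvk was -3.19, -2.72 and -2.68 on DECB 4, 5 and 6, against -5.64, -5.67 and -5.28 on controls 1, 2 and 3, a shift of 2.67 (1.41 with normexp). That of Idi1 to Mvd was 4.58, 5.36 and 4.88 in DECB samples and 7.23, 7.17 and 7.0 in controls, a shift of -2.19 (-0.89 with normexp). On both ratios the groups were clear of each other in either setting, but Mvd was not well above background on control 1, so these levels are imprecise there. For Sqle over Fdft1 the ratio was 1.83, 1.41 and 2.36 in DECB samples and 0.65, -0.30 and -0.44 in controls, a shift of 1.90. For Lss over Sqle it was -4.23, -3.19 and -4.15 in DECB samples and -3.14, -2.56 and -2.31 in controls, a shift of -1.19 (-1.67 with normexp). Lss was likewise not well above background on control 1. The normexp ratios were added after the data were seen. Each of these shifts had the smallest p that an exact permutation test of 3 against 3 arrays can give, 0.1 (two-sided, 0.2 adjusted over the 8 neighbouring pairs). The shifts of the other 4 pairs lay between -0.71 and 0.83, with overlapping groups and exact permutation p of 0.2 to 1.

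**Figure D3:**
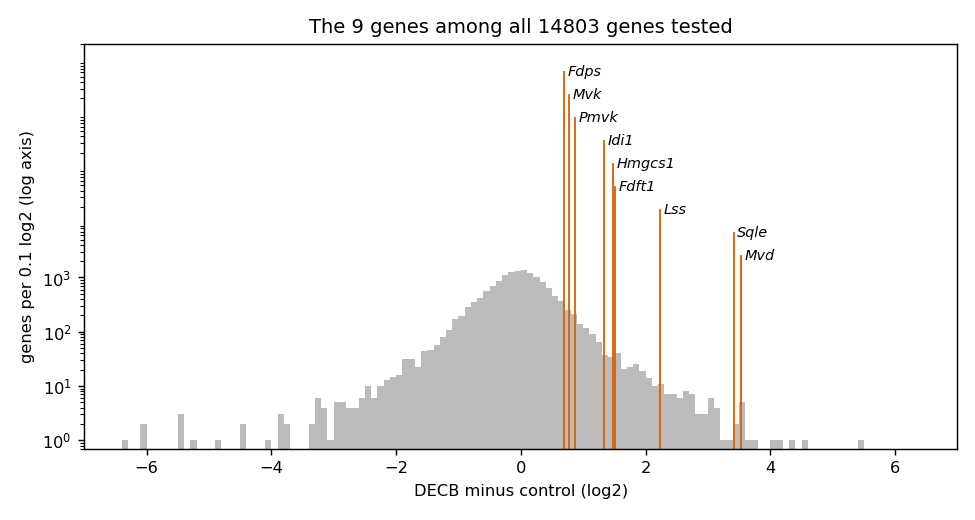
Number of genes (vertical log axis) by DECB minus control difference (horizontal axis, log2) for all 14803 genes tested, with the 9 pathway genes as lines. Their ranks run from 11 for Mvd to 1214 for Fdps, all in the upper part of the distribution.

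The mean of the pathway genes also differed between arrays of a group. After each gene was set to 0 on its own average, the mean of the 9 genes was 0.33, 0.95 and 1.36 on DECB 4, 5 and 6, against -0.61, -0.99 and -1.04 on controls 1, 2 and 3. In that mean DECB 4 lay lowest and DECB 6 highest of the DECB arrays, and control 1 was the highest of the controls. DECB 6 and control 1 are the arrays of the dim slide 1. Not every gene had this order: Mvk, Fdps, Fdft1 and Lss were highest on DECB 5. For Mvk, Fdps and Fdft1 control 1 was the lowest control. The 5 genes closest to the mean profile, by root mean square difference over the 6 arrays, were Mcm3 (0.09), Cdca3 (0.12), Pkmyt1 (0.15), Atp2b2 (0.16) and Atp11a (0.17). Mcm3 is a subunit of the replicative helicase, Cdca3 a cell division protein and Pkmyt1 a kinase that restrains entry into mitosis. None of these 5 passed the test (adjusted p between 0.0651 and 0.161).

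The sterol steps after lanosterol were less uniform. Of 10 genes tested, 8 were above 0 with a median of 0.58, and 0 passed the test in either direction (limma). At an unadjusted p under 0.05, 4 were higher and 1, Tm7sf2, lower, against 4.22% and 5.79% of all genes. Msmo1, the methylsterol oxidase, averaged 3.88 ± 1.18 in DECB and 1.09 ± 0.84 in control samples (SD, n = 3 each), a difference of 2.79 (adjusted p = 0.167). Cyp51, which demethylates lanosterol, differed by 2.11 (adjusted p = 0.141). Dhcr7, the final reductase of one branch, differed by 1.75 (adjusted p = 0.146) and was well above background on 2 of 3 control arrays. With slide as a block 2 of the 10 were called higher, Cyp51 (adjusted p = 0.0176) and Msmo1 (adjusted p = 0.0186), and 0 lower. Among all genes that fit called 2.74% higher and 3.94% lower. The 2 genes below 0, named after their values were seen, were Tm7sf2, a sterol reductase, at -0.79 and Ebp, a sterol isomerase, at -0.08.

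Genes that supply acetyl-CoA and HMG-CoA did not share the direction. Of 7 genes, 2 were above 0 (Acly and Slc25a1, named after their values were seen), the median was -0.72, and 0 passed the test (limma). At an unadjusted p under 0.05, 3 genes were lower, against 5.79% of all genes. Acat1, the mitochondrial thiolase, averaged 3.0 ± 0.35 in DECB and 4.01 ± 0.28 in control samples (SD, n = 3 each), a difference of -1.02 (adjusted p = 0.299). Blocking on slide, 2 of the 7 were called lower, Acat1 among them (adjusted p = 0.0386), against 3.94% of all genes.

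Users of isoprenoids outside the sterol branch lay near the middle of all genes. Of 12 tested, 7 were above 0 with a median of 0.03, and 0 passed the test (limma; 0 had an unadjusted p under 0.05). Dhdds, which builds dolichol chains, differed by 1.12 (adjusted p = 0.518) and Pdss1 of ubiquinone synthesis by 0.73 (adjusted p = 0.631). Pdss1 was well above background on 2 of 3 control arrays. Rabggta, a subunit of a protein prenyltransferase, differed by 0.52 (adjusted p = 0.812). With slide as a block 1 of the 12, Dhdds, was called higher (adjusted p = 0.0288), against 2.74% of all genes.

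Genes of SREBP control and sterol uptake split evenly, with 6 of 12 above 0, a median of 0.16 and 0 past the test (limma; 10 had an unadjusted p under 0.05, 5 in each direction, where 4.22% of all genes were higher and 5.79% lower at that level). Insig1, a retention factor that is itself an SREBP target, averaged 0.76 ± 0.71 in DECB and -1.45 ± 0.57 in control samples (SD, n = 3 each). Its difference was 2.21 (adjusted p = 0.116). Npc1, which moves cholesterol out of lysosomes, differed by -1.43 (adjusted p = 0.0931). Named after their values were seen, Srebf2 and Srebf1, the SREBP genes, differed by 1.25 and 1.74 (adjusted p = 0.481 and 0.205). Srebf2 was well above background on 2 of 3 control arrays. Insig2, the relative of Insig1 and also named after its value was seen, differed by -1.26 (adjusted p = 0.129). Blocking on slide, 3 of the 12 were called higher, Insig1 and Srebf1 among them, and 4 lower, Npc1 and Insig2 among them (adjusted p between 0.0263 and 0.0322 for these). Over all genes 2.74% were called higher and 3.94% lower in that fit. Of 6 genes of sterol esterification and export, 2 were above 0 with a median of -0.40. In that list Abcg5, a subunit of the sterol transporter into bile, had a log2 difference of -2.45 (SE 0.29) and passed the test with an adjusted p of 0.0343. Abcg5 averaged 0.96 ± 0.30 in DECB and 3.42 ± 0.19 in control samples (SD, n = 3 each). It was the 1 gene of these 5 further lists that passed, and it passed with slide as a block too (adjusted p = 0.0172).

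**Figure D4:**
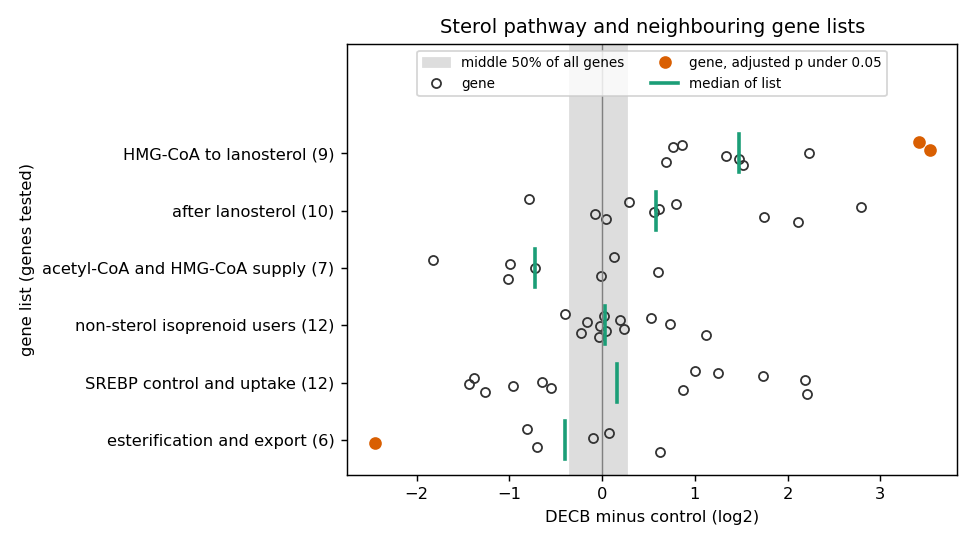
DECB minus control (log2, horizontal axis) for each tested gene of 6 lists, with list medians and a band for the middle 50% of all genes. Filled points passed the test: Mvd and Sqle among the 9 pathway genes and Abcg5 among esterification and export genes.

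Markers of other cells were measured in the same samples, as their summed signal in units of each array's 75th percentile. Kupffer cell markers summed to 13.3 to 17.5 in DECB and 11.5 to 16.5 in control samples (6 of 6 genes used), and endothelial markers to 14.8 to 31.3 in DECB and 20.5 to 38.5 in control samples (6 of 6). Stellate cell markers summed to 14.4 to 30.0 in DECB and 22.0 to 45.1 in control samples (5 of 6). Cholangiocyte markers summed to 2.37 to 32.1 in DECB and 1.21 to 7.44 in control samples (4 of 6), with all 4 genes above 0 and Krt7 on no array well above background. Their sum followed Cftr, whose log2 signal was 2.79, 4.95 and -0.27 on DECB 4, 5 and 6. On controls 1, 2 and 3 Cftr read -1.74, 2.73 and 2.75, so it was lowest on the slide 1 array in each group. Markers of T and B cells summed to 0.47 to 0.64 in DECB and 0.26 to 0.61 in control samples (3 of 6, Cd3g on no array). The groups overlapped for each of these sums, which follow the brightest genes of a list. Gene by gene, 0 passed the test in these lists. At an unadjusted p under 0.05 (limma), Hand2 (-1.01) and Reln (-0.86) of the stellate list were lower (5.79% of all genes). Sox9 (1.0) and Krt19 (0.76) of the cholangiocyte list were higher at that level (4.22%). Reln was well above background on 1 of 3 DECB and 2 of 3 control arrays, and Krt19 on 2 of 3 in each group. With slide as a block, Hand2 and Stab2, an endothelial gene, were called lower (adjusted p = 0.032 and 0.0463), against 3.94% of all genes. Erythroid markers did not overlap, with 15.7 to 41.1 in DECB and 64.4 to 97.7 in control samples (3 of 4). Hbb-bt and Hba-a1, the globins, differed by -2.29 and -1.73 (adjusted p = 0.139 and 0.191). Alas2, the erythroid heme synthesis enzyme, went the other way, with a difference of 0.88 (adjusted p = 0.543). The part of blood or bile duct cells in the pathway's difference was not tested.

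**Figure D5:**
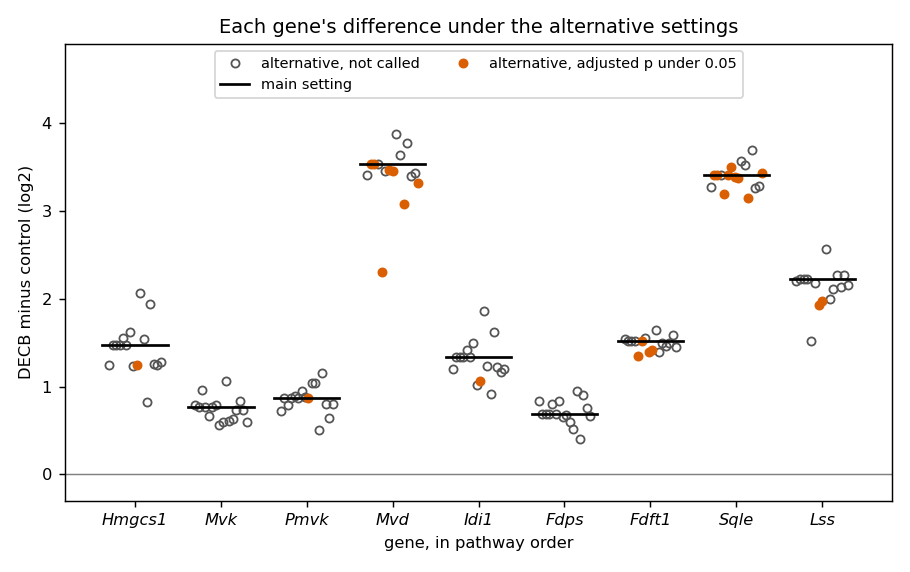
DECB minus control (log2, vertical axis) of each gene under up to 16 alternative settings (points, filled where adjusted p was under 0.05) and the main setting (line). No point lies below 0, and filled points occur for 7 of the 9 genes.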

How the data were processed

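Liver RNA of 3 DECB and 3 control samples was measured on 1-colour arrays. The authors' deposited scanner files hold intensity values from Agilent Feature Extraction 11.0.1.1, corrected for background and spatial trend but not scaled across arrays, per the file headers. A deposited value table, taken as log2 from its range, was compared with them and used no further. No source used here gives the authors' statistical test.

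Processed signals were put on the log2 scale, the 75th percentile over 43020 non-control spots was subtracted per array, and the values were used without outlier-marked spots (164 to 322 per array). A probe was kept where 3 or more of 6 arrays had it well above background (25416 of 39429), and each gene was represented by its brightest probe. Gene names came from the RefSeq table of GRCm38.p6 by unversioned accession (27234 of 28684 RefSeq probes matched). The array design names mm9, so gene coordinates are those of GRCm38.p6 alone. Tests used limma 3.58.1 in R 4.3.3 (lmFit and eBayes; two-sided), and p-values were adjusted over 14803 genes by Benjamini-Hochberg. With 3 arrays a group, an exact permutation test cannot give a p under 0.1, and the number of arrays limits the precision. The fit was also run on simulated arrays. Their noise was independent between arrays and held no slide effect, so that run does not cover the slides of these data.

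Members and lists were chosen with earlier results of these data known. Named are all 9 members, genes of other lists past the threshold, and otherwise up to 3 per list by smallest p; some genes the rule takes are not reported here. The normexp alternative used median spot signals, since the files hold no mean spot signal. It added an offset of 50 and was followed by quantile normalization. Arrays were grouped by title, and arrays that share a scan date and time are called a slide.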

Additional observations from a re-analysis of the deposited data

How the results depend on the processing

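All 9 differences stayed above 0 under each of the 16 alternatives that tested them; Mvd and Lss were not tested when probes had to be well above background on all arrays. Of 142 gene values, 118 kept their side of the threshold, 15 lost a call, all of Mvd and Sqle, and 9 gained one. The number of genes called higher was 2. It was 1 with quantile normalization, where Mvd had an adjusted p of 0.0537, 3 with normexp, 4 with slide as a block and 7 with slide as a random block. It was 0 with no filter on dim probes and 0 with controls 2 and 3 averaged (limma; 4 and 4 of the 9 at an unadjusted p under 0.05, and 0 of all genes called higher in either). Leaving out 1 array gave 0 to 2 calls and a median difference between 0.95 and 1.86, lowest without DECB 6 and highest without DECB 4. The 2 calls came without DECB 6, where 0.122% of all genes were called higher. The fits with 0 calls had 4 to 7 of the 9 at an unadjusted p under 0.05 and also called 0 of all genes higher. The causes were not tested. Slides 1 and 2 hold both groups and were fitted as a block; by replicate number no paired analysis was possible because none is shared between the groups. Among the 9 genes, dim probes limit Mvd and Lss on control 1.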

Other observations

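The deposited value table did not follow the scanner files. Its 6 columns had the same median, 5.34 on a scale taken as log2, with centring and direction unknown. Over 25313 probes, an array's levels correlated with its own column at Pearson's r of 0.672 to 0.694. After each probe was centred on its own mean, r lay between -0.034 and 0.044, and no array reached more than 0.138 with any column. These correlations are across probes, which are not independent replicates. The pathway genes were therefore not read from that table.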
